A study of Sus scrofa with 12 samples.

Results

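The genes described here handle vitamin A and its active form, retinoic acid, in pig myocardium after ischemia-reperfusion injury. They were 9 genes of retinoid binding, synthesis and response, taken by gene symbol from the 35682 genes of the count tables: the retinoic acid binding proteins CRABP1 and CRABP2, the retinol carrier RBP4 and its membrane receptor STRA6, the retinal dehydrogenases ALDH1A1, ALDH1A2 and ALDH1A3, the receptor gene RARB, and RARRES2. They were selected on their function with their border-to-remote log2 fold changes in these libraries already known, so that difference is given for the 9 genes as a description, with no p-value. The number of the 9 that passed a threshold is given beside the share of all genes that did, and nothing is read from it. All 9 were found, and 7 passed the filter on low counts. RBP4 and STRA6 did not.

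The 12 libraries came from the hearts of 6 female Yorkshire pigs, numbered 1022, 1322, 1323, 1623, 1922 and 3622. Each pig gave 1 piece of border zone, taken next to the infarct, and 1 of remote zone, taken from the posterior wall, both named as mid-level tissue. All animals had a 60 min balloon occlusion of the left anterior descending artery and, from day 9, tacrolimus at 0.75 mg/kg/day, mycophenolate mofetil at 500 mg/day and prednisolone at 20 mg/day. On day 14 they received fibrin glue, either with vascular organoids of human endothelial progenitor cells and smooth muscle cells or alone. Which animal received which was not used here. Both regions hold the same animals, and treated and control pigs were not compared. The organoids were laid over the infarct and the border zones around it. In treated pigs, topical treatment and region therefore cannot be told apart. No uninjured heart was analysed here, and the remote zone belongs to an injured heart under immunosuppression. The library totals on genes were 15130210 to 30526110 reads in the border zone and 20091415 to 31618680 reads in the remote zone. Levels are given as CPM, reads per 1000000 of the TMM-scaled total of the genes tested. Cardiomyocyte markers were abundant in all libraries, with a summed level of 63840 to 109400 CPM over 11 genes in the remote zone and of 13040 to 75050 CPM in the border zone. Of the border zone libraries, that of animal 1022 stood apart, with the lowest cardiomyocyte sum and with 83070 CPM over 15 fibroblast and matrix genes, where the next border zone library had 14210. The border zone library of animal 3622 had the smallest total and listed the most genes, 28024.

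Retinol travels in blood bound to RBP4 and can enter cells through STRA6. Inside cells it is oxidised to retinal by enzymes such as RDH10, and retinal is oxidised irreversibly to retinoic acid by the ALDH1A enzymes. CRABP2 carries retinoic acid to the nuclear receptors, CRABP1 binds it in the cytosol and is linked to its breakdown, and CYP26 enzymes degrade it. The receptors RARA, RARB and RARG act as partners of the RXR proteins on DNA, and RARB is itself a classic retinoic acid target gene. In the developing heart, ALDH1A2 in the epicardium is a main source of retinoic acid.

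The binding proteins showed the widest separation between regions. CRABP1 (ENSSSCG00000021873, 7:47602316-47608865 in Sscrofa11.1) had 0.145 CPM in the lowest, 0.453 in the median and 1.25 in the highest remote zone library. In the border zone these values were 4.14, 11.7 and 35.65 CPM. Each border zone library was above each remote zone library, and the highest was that of animal 1022. The counts behind these values were 3 to 38 reads in the remote zone and 85 to 1079 in the border zone, so the remote zone levels rest on few reads. By edgeR's quasi-likelihood fit this came to a log2 fold change of 4.62 (standard error 0.64, 6 libraries per region). Without animal 1022 it was 3.89. In bulk tissue, for this and the other genes, fewer cells of a type and less RNA per cell cannot be told apart.

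CRABP2 (ENSSSCG00000006472, 4:93388198-93393861) had 0 reads in the remote zone libraries of animals 1022, 1922 and 3622 and at most 11 in the others. Its remote zone CPM was between 0 and 0.362. In the border zone it was 0.825 in animal 1922, 0.883 in 1323, 1.17 in 1322, 3.54 in 1623, 4.28 in 3622 and 20.1 in 1022. The regions did not overlap, although the lowest border zone library held only 17 reads. On the log2 scale the border zone was higher by 5.51 (standard error 1.07), a fitted value that depends on how libraries with 0 reads are treated. Without animal 1022 it was 3.97, and without animal 1323, whose remote zone library held the most reads, it was 6.86.

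To show the stretch of genome ahead of CRABP2, the gene of the 9 with the largest fitted fold change, the first 150 of the 250 bases before the start annotated by RefSeq are printed 5′ to 3′ on the plus strand, with GGGCGG and TATAAA in capitals where they occur on either strand. They span 4:93387948-93388097.
CRABP2: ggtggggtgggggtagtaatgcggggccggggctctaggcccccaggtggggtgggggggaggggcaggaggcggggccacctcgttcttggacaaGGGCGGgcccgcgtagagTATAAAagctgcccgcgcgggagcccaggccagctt
In the 250 bases, CRABP2 held 1 of each. Among the upstream windows of 19545 protein-coding genes, 45.9% held GGGCGG and 9.77% held TATAAA on either strand. The 250 bases of CRABP2 were 66.8% G and C. Retinoic acid receptors bind direct repeats of a half-site, which was searched here as AGGTCA and, with a changed letter, as AGTTCA, then also as GGTTCA and finally as GGGTCA. None of the 9 genes held such a repeat with a gap of 5 or 2 bases on either strand from 250 bases before to 50 after the start. Of all protein-coding genes, 0.046% held one with a gap of 5 and 0.0512% with a gap of 2. These matches and their absence describe the letters in these windows only.

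**Figure D1:**
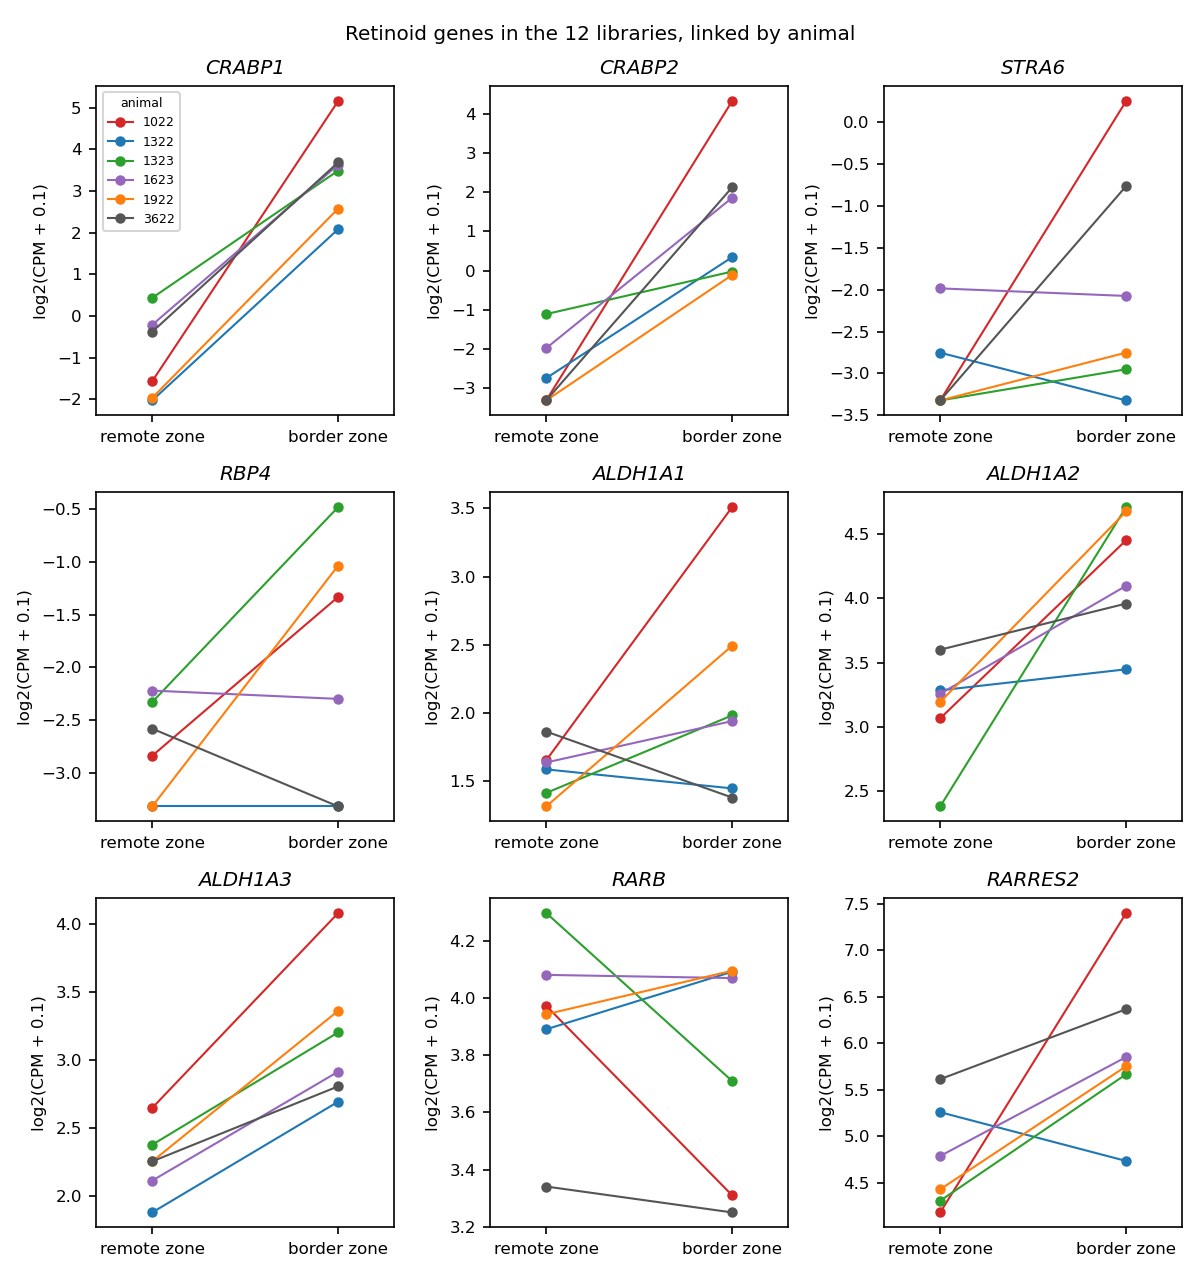
Level of each of the 9 genes as log2(CPM + 0.1) in the remote zone and border zone, with 1 line per animal. Each panel has its own axis; the lines of CRABP1, CRABP2, ALDH1A2 and ALDH1A3 rise in all 6 animals, and those of RARB do not rise together.

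Carrier and receptor of retinol were close to the detection limit. RBP4 (ENSSSCG00000010479, 14:105037360-105044552) had 0 to 3 reads per remote zone library and 0 to 21 per border zone library, and 49 reads in all. Its border zone level was above the remote zone level in 3 of 6 animals. STRA6 (ENSSSCG00000001909, 7:59317930-59347274) had 52 reads in all, 33 of them in the border zone of animal 1022 and 8 in that of animal 3622. It had 0 reads in 5 libraries, among them the remote zone libraries of animals 1022, 1323, 1922 and 3622. With so few reads, no difference between regions is given for either gene.

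The dehydrogenases that make retinoic acid had positive fold changes that overlapped within their errors. ALDH1A2 (ENSSSCG00000025578, 1:113932722-114037059) had 5.10, 9.25 and 12.0 CPM in the lowest, median and highest remote zone library, against 10.8, 19.4 and 26.1 in the border zone. In all 6 animals the border zone was the higher, as it was for 11.7% of all genes tested, but the regions overlapped, since the remote zone library of animal 3622 (12.0 CPM) was above the border zone library of animal 1322 (10.8 CPM). The fitted log2 fold change was 1.13 (standard error 0.24). The highest border zone libraries of ALDH1A2 were those of animals 1323 (26.1 CPM) and 1922 (25.5 CPM), and the library of animal 1022 was the third, at 21.8 CPM.

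ALDH1A3 (ENSSSCG00000004822, 1:139451080-139491514) had 3.58 to 6.18 CPM in the remote zone, with a median of 4.68, and 6.38 to 16.9 CPM in the border zone, with a median of 8.29. The regions did not overlap, and the fitted log2 fold change was 1.0 (standard error 0.25). Within animals the difference in log2 CPM was between 0.55 and 1.44, a narrow range beside that of ALDH1A2, which went from 0.16 to 2.34.

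ALDH1A1 (ENSSSCG00000028996, 1:226163347-226217342) had 2.39 to 3.54 CPM in the remote zone, with a median of 2.96. The border zone range of 2.51 to 11.3 CPM, with a median of 3.80, included most of the remote zone range, and 4 of 6 animals had more in the border zone. Its log2 fold change was 0.76 (standard error 0.35), and 0.34 without animal 1022, whose border zone library held the 11.3 CPM.

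RARB (ENSSSCG00000011212, 13:12336387-12507688), the retinoic acid receptor beta gene, had overlapping levels in the 2 regions. Its lowest, median and highest CPM were 10.03, 15.4 and 19.6 in the remote zone and 9.41, 14.8 and 16.99 in the border zone. Only animals 1322 and 1922 had more in the border zone. Its log2 fold change was -0.15 (standard error 0.20), and 0.087 with library totals in place of TMM, a scaling that moved the median of all genes from 0.04 to 0.32. Animal 3622 had the lowest RARB level in both regions.

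The RARB gene is the textbook case of a retinoic acid response element, a direct repeat with a gap of 5 bases. The motif GGTTCANNNNNAGTTCA was searched on both strands in the first 300 bases of 19549 protein-coding genes, and RARB was the 1 gene that held it, a share of 0.00512%. In the window from 250 bases before to 50 after the start, 1 gene held it, which was not RARB. The RARB match lies on the plus strand at 13:12336550-12336566, in intron 1 of the RefSeq model, 18 bases past the end of exon 1 and at base 164 of the gene. It is printed with the 17 bases of the element in capitals, over 13:12336533-12336590. The match describes the letters in this window only, and a response of RARB to retinoic acid was not tested.
RARB element: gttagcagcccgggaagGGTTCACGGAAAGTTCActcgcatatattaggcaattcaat

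RARRES2 (ENSSSCG00000035419, 18:55903693-55906976) encodes chemerin, a secreted attractant of immune cells and an adipokine, first described as a retinoid-responsive gene. It had 18.0, 24.5 and 48.9 CPM in the lowest, median and highest remote zone library and 26.5, 55.8 and 169.2 CPM in the border zone. In 5 of 6 animals the border zone was the higher. Animal 1322 went the other way, with 38.2 CPM in the remote and 26.5 in the border zone. Its log2 fold change was 1.34 (standard error 0.39), and 0.79 without animal 1022, whose border zone library was the highest.

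Of the 7 genes tested, 6 had a positive log2 fold change, as did 53.3% of all genes tested. The median of the 7 was 1.13, against 0.04 over all 13844 genes tested. CRABP1, CRABP2 and ALDH1A2, 3 of the 7, passed an adjusted p of 0.05 by edgeR, all higher in the border zone. Of all genes tested, 2.06% were called higher, 0.0144% lower and 2.07% in either direction. At an unadjusted p under 0.05, 6 of the 7 passed, all higher, where 24.7% of all genes tested passed and 17.0% were higher. With the animal as a block it was CRABP1 alone, where 0.296% of all genes were called. The Wald test of DESeq2 called 5 of the 9 genes, adding ALDH1A3 and RARRES2, at a background of 10.3%. With 1 animal left out, edgeR called 0 of the 7 without animal 1323, 1623 or 3622, where it called 3, 0 and 0 genes among all tested. It called 1 without animal 1922, 2 without 1022 and 3 without 1322, where 15, 163 and 519 genes were called among all tested. With only the border zone library of animal 1022 or of animal 3622 left out it called 3, among 307 and 156 genes in all. The regions did not overlap for CRABP1, CRABP2 and ALDH1A3, while every border zone library was above every remote zone library for 1.99% of all genes tested.

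**Figure D2:**
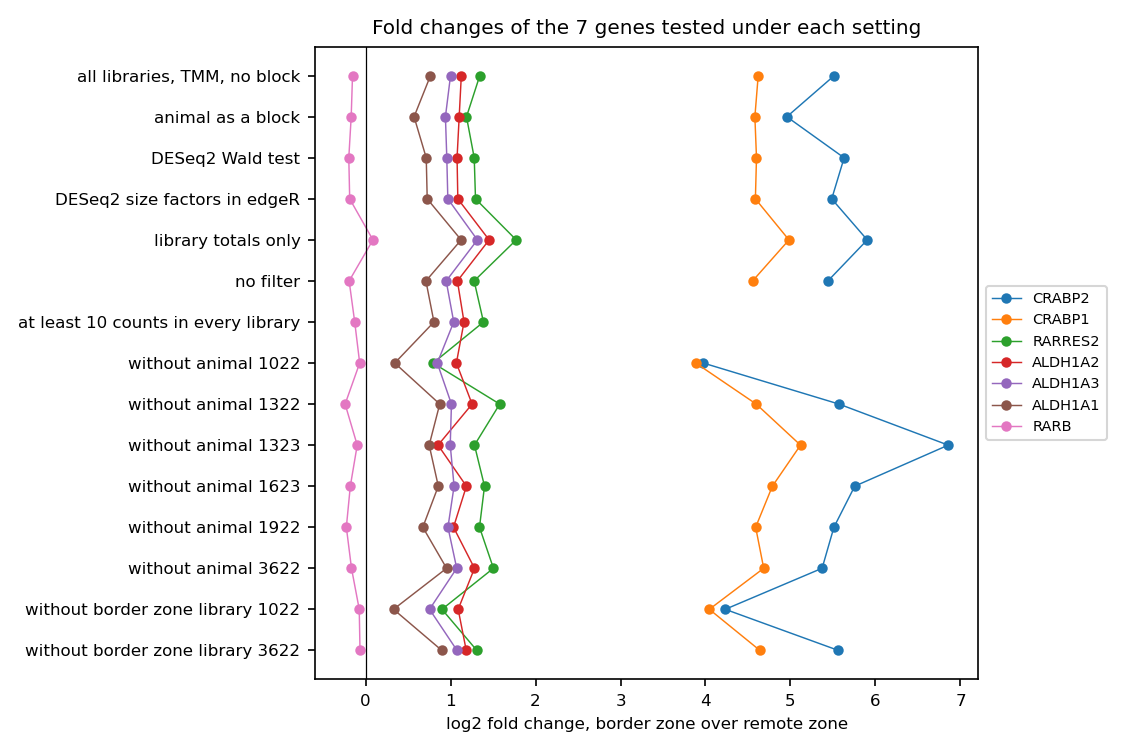
Log2 fold change of border zone over remote zone (x axis) for the 7 genes tested, with 1 row per way of fitting or per library or animal left out. CRABP1 and CRABP2 stay between 3.89 and 6.86, the ALDH1A genes and RARRES2 between 0.33 and 1.77, and RARB between -0.24 and 0.09, and CRABP1 and CRABP2 have no point under the filter of at least 10 counts in every library.

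Levels were compared between genes per kilobase of the RefSeq exons. In the remote zone the order by median was RARRES2 (25.5 CPM per kb), RARB (5.93), ALDH1A2 (2.27), ALDH1A1 (1.40), ALDH1A3 (1.29), CRABP1 (0.857), CRABP2 (0.0415), RBP4 (0.00958) and STRA6 (0). RARRES2 was above RARB and RARB above ALDH1A2 with no overlap between their ranges, while the ranges of ALDH1A2, ALDH1A1, ALDH1A3 and CRABP1 overlapped. In the border zone CRABP1 stood second, at 22.1 CPM per kb, with a range of 7.83 to 67.4 that overlapped that of RARRES2 (median 58.1) and lay above that of RARB (median 5.70, highest 6.53). CRABP2 had a median of 4.03 CPM per kb there, between ALDH1A2 (4.77) and ALDH1A3 (2.29), with ranges that overlapped both. Of the dehydrogenases, ALDH1A2 had the highest median per kilobase in both regions. The deposited counts used Ensembl gene models, whose exons can differ from those of RefSeq.

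**Figure D3:**
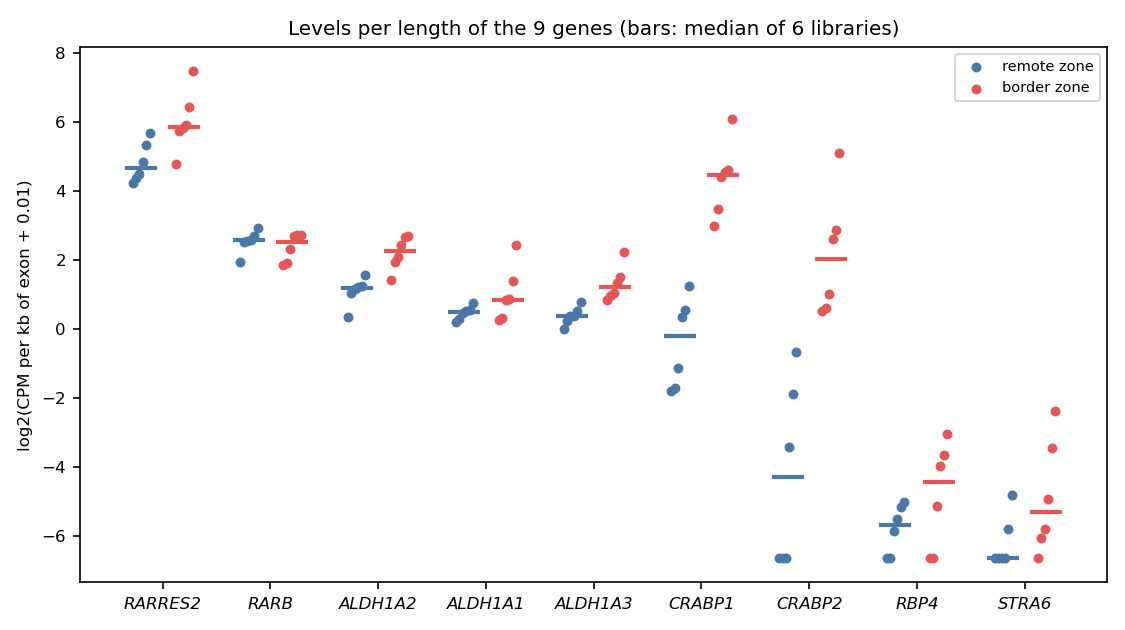
Level per length, as log2(CPM per kb of exon + 0.01), of the 9 genes in the 6 remote zone (blue) and 6 border zone (red) libraries, ordered by the remote zone median; bars are medians. CRABP1 lies below the ALDH1A medians in the remote zone and above them in the border zone.

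The border zone libraries differed among themselves. Animal 1022 had the highest border zone level of CRABP1, CRABP2, ALDH1A1, ALDH1A3, STRA6 and RARRES2, while animal 1322 had the lowest of CRABP1, ALDH1A2, ALDH1A3 and RARRES2. The SD of log2 CPM among the 6 border zone libraries was 1.73 for CRABP2, 1.06 for CRABP1 and 0.88 for RARRES2, and 0.49 for ALDH1A2 and 0.40 for RARB. In the remote zone it was between 0.19 for ALDH1A1 and 1.07 for CRABP1.

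Marker lists of other cell types were summed in the same libraries. Their counts stand beside a background over all genes tested by edgeR of 2.06% called higher and 0.0144% lower. At an unadjusted p under 0.05, 24.7% passed in either direction and 17.0% were higher. DESeq2 called 10.3% of 16688 genes, 1415 higher and 309 lower. Over 15 matched genes of a fibroblast and matrix list, the summed level was 1454 to 3628 CPM in the remote zone and 4339 to 83070 CPM in the border zone, higher in 6 of 6 animals, and 13 of the 15 genes passed the threshold of edgeR, all higher. In the border zone animals 1022 and 1322 had the highest and lowest sum and the highest and lowest CRABP1, but animal 1922 had the second highest sum (14210 CPM) and the second lowest CRABP1 (5.88 CPM), and animal 3622 the second lowest sum (8538 CPM) and the second highest CRABP1 (12.8 CPM). The cardiomyocyte sum was lower in 6 of 6 animals, with 0 of 11 genes called by edgeR, 3 lower at an unadjusted p under 0.05 and 1 called lower by DESeq2. All 12 macrophage genes had a positive fold change, with 0 called by edgeR, 12 at an unadjusted p under 0.05 and 5 called by DESeq2, and their sum was 131.7 to 283 CPM in the remote and 145.4 to 1679 CPM in the border zone, where the highest without animal 1022 was 407.6. That sum was higher in 5 of 6 animals and went from 174.3 to 145.4 CPM in animal 1322. Of 12 epicardial and mesothelial markers, 8 were matched and 5 tested, with 0 called by edgeR, 2 higher at an unadjusted p under 0.05 and 2 called higher by DESeq2. Their sum was 26.7 to 98.2 CPM in the remote and 30.6 to 141.1 CPM in the border zone, most of it KRT8. BNC1 was at 0 in all remote zone libraries and at most 0.245 CPM in the border zone and UPK3B was at most 2.03 CPM. WT1 was at 2.76 to 6.48 CPM over both regions (log2 fold change 0.17), and TBX18 at 0.780 to 2.21 CPM in the remote and 1.07 to 19.6 CPM in the border zone (log2 fold change 2.11, adjusted p = 0.0605 by edgeR). CDH1 had a log2 fold change of 1.76 (adjusted p = 0.144 by edgeR). The sums of the endothelial, smooth muscle and pericyte, Schwann cell and adipocyte lists were higher in the border zone in 3, 5, 6 and 1 of 6 animals. Each of these 4 lists had 0 genes called by edgeR. At an unadjusted p under 0.05 they had 0, 8, 2 and 3 higher, and 1 smooth muscle and pericyte gene lower, and DESeq2 called 0, 5, 1 and 2 higher. The part of these markers' cell types in the differences of the retinoid genes was not tested.

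Per 1000 CPM of the matrix list, CRABP1 was at 0.0571 to 0.579 CPM in the remote zone and at 0.413 to 1.50 in the border zone, higher there in 6 of 6 animals. CRABP2 was higher in 5 of 6 on this scale. ALDH1A2 went from 2.36 to 5.69 in the remote zone to between 0.263 and 2.49 in the border zone, and was higher in 1 of 6 animals, as was ALDH1A3. ALDH1A1, RARRES2 and RARB were higher in 0 of 6. The sum is carried by its most abundant genes, and the log2 fold changes of the 15 genes ran from 1.14 for DCN, 1.26 for PDGFRA and 1.29 for TCF21 to 4.05 for COL1A1 and 5.09 for FN1, so these ratios depend on which matrix genes are summed.

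**Figure D4:**
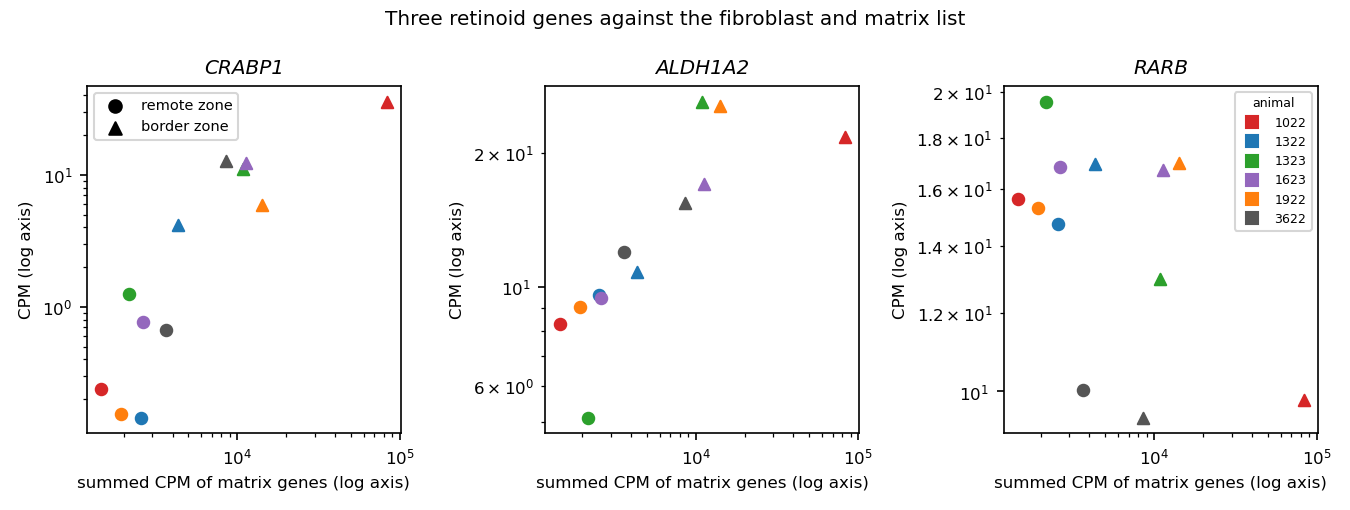
CPM of CRABP1, ALDH1A2 and RARB against the summed CPM of 15 fibroblast and matrix genes in the 12 libraries, on log axes, with circles for the remote zone, triangles for the border zone and 1 colour per animal. At the far right, the border zone piece of animal 1022 has the most CRABP1, 35.65 CPM, whereas ALDH1A2 there (21.8 CPM) is below 2 other border zone libraries and RARB (9.81 CPM) is the second lowest of all.

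Other genes of the pathway were described from lists that hold none of the 9 genes. Of 50 such genes, all matched to an identifier, 34 were tested and 0 had an adjusted p under 0.05 by edgeR, with or without the animal as a block. At an unadjusted p under 0.05, 14 were higher and 1 lower in the border zone. Of all genes tested, 24.7% passed that p in either direction and 17.0% were higher. The DESeq2 Wald test called 7 higher and 1 lower of 40 genes with an adjusted p. That test called 10.3% of 16688 genes in all, 1415 higher and 309 lower. The median log2 fold change of the 34 was 0.34, against 0.04 over all genes tested. Of the 34, 23 were above 0, where 53.3% of all genes tested were. The median of these wider genes was 0.21 without the border zone library of animal 1022. By DESeq2, over more genes, it was 0.82, against 0.45 over all genes.

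In retinol transport and storage, 4 of 9 genes were tested. TTR, the plasma partner of RBP4, had 0 reads in all remote zone libraries. In the border zone it had 4 reads each in animals 1022 and 3622, at most 0.245 CPM. Of the oxidoreductases of retinol and retinal, 7 of 14 were tested, 3 with a fold change above 0. RDH10, which makes retinal for the ALDH1A enzymes, had 2.66 to 4.08 CPM in the remote and 3.56 to 17.2 CPM in the border zone and was higher in 6 of 6 animals, a log2 difference by edgeR of 1.12 (standard error 0.37, adjusted p = 0.0982). The 17.2 CPM was animal 1022, the next was 8.24, and without that animal the difference was 0.59. DHRS3, which returns retinal to retinol, had a difference of 0.13 on the log2 scale (standard error 0.26, edgeR adjusted p = 0.80), which was -0.13 without animal 1022.

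Of the enzymes that break down retinoic acid, CYP26B1 alone was tested. It had 3.74 to 9.10 CPM in the remote and 7.09 to 16.4 CPM in the border zone, higher in 6 of 6 animals, and edgeR gave a log2 difference of 0.58 (standard error 0.24, adjusted p = 0.164). CYP26A1 and CYP26C1 had 0 reads in all remote zone libraries. In the border zone CYP26A1 had 23 reads over 4 libraries, 18 of them in animal 1022. CYP26C1 had 3 reads, all in the border zone library of animal 3622, which listed the most genes.

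All 5 other retinoid receptor genes were tested. RARG had a median of 8.04 CPM in the remote and 13.7 CPM in the border zone, a log2 difference by edgeR of 0.92 (standard error 0.33, adjusted p = 0.119) that was 0.48 without animal 1022. RARA had medians of 28.5 and 39.0 CPM, a log2 difference by edgeR of 0.56 (standard error 0.22, adjusted p = 0.146) that was 0.30 without animal 1022, whose 76.5 CPM in the border zone stood against at most 42.9 in the others. In both, 5 of 6 animals had the higher level in the border zone and animal 1322 the lower. For RXRB the border zone level was below the remote zone level in 6 of 6 animals and the regions did not overlap, at 32.0 to 38.5 CPM in the remote and 26.4 to 30.6 CPM in the border zone. Every border zone library was below every remote zone library for 0.701% of all genes tested. The log2 fold change of RXRB was -0.29 (standard error 0.11, adjusted p = 0.133 by edgeR, 0.110 with the animal as a block and 0.00865 by DESeq2). With library totals in place of TMM it was -0.0059 (edgeR adjusted p = 0.985). RXRG, which is abundant in striated muscle, had 69.6 to 101.4 CPM in the remote and 11.9 to 110.0 CPM in the border zone, lowest in animal 1022 (log2 fold change -0.54, standard error 0.38, adjusted p = 0.39 by edgeR, and -0.32 without that animal). RXRA had medians of 114.0 and 107.0 CPM, and a log2 difference by edgeR of -0.10 (standard error 0.17, adjusted p = 0.762) that was 0.16 with library totals.

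Among 8 receptor cofactors and delivery genes, 6 had a fold change above 0. Of 8 genes that respond to retinoic acid, 6 were tested, and all had a fold change above 0, as did 53.3% of all genes tested. At an unadjusted p under 0.05, 5 of the 6 were higher, where 17.0% of all genes tested were. DESeq2 called 3 of that list higher, where it called 10.3% of 16688 genes in all, 1415 higher and 309 lower. RARRES1 and RAI14, named after their values were seen, had the largest log2 fold changes of that list, 3.52 and 2.17 (adjusted p = 0.0703 and 0.0582 by edgeR), which were 1.62 and 1.44 with the animal as a block (adjusted p = 0.259 and 0.115). In the border zone RARRES1 was at 58.8 CPM in animal 1022 and at most 8.31 in the others, and RAI14 at 85.2 CPM in animal 1022 and at most 15.7 in the others.

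For chemerin, the product of RARRES2, 3 receptor genes were tested and all had a fold change above 0. CMKLR1, its signalling receptor on macrophages and other cells, had 5.67 to 11.8 CPM in the remote and 10.7 to 62.5 CPM in the border zone, and was higher in 6 of 6 animals. Its log2 fold change was 1.48 (standard error 0.39, adjusted p = 0.0576 by edgeR, and 0.0814 with the animal as a block). Leaving out the border zone library of animal 1022 alone gave 0.91 with an edgeR adjusted p of 0.0458. Ligand and receptor were both highest in that library.

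Among genes with a symbol that passed the filter, those with levels most like each of the 7 genes tested were named. The measure was the highest Pearson r of log2 CPM across the 12 libraries, as a description, since all points share the region difference. For CRABP1 the closest were CCDC80 (r = 0.982), COL8A2 (0.973) and ABI2 (0.968). COL8A2, a collagen chain, was near both binding proteins, but with a prior count of 0.5 in place of 2 it was not among the 3 genes nearest to CRABP2. For CRABP2 they were KCNMA1 (0.979), APCDD1 (0.978) and COL8A2 (0.978), and CRABP1 and CRABP2 had r = 0.947 with each other. Genes close to ALDH1A1 were C1S (0.956) and SOD3 (0.952), values that fell to 0.850 and 0.828 without the border zone library of animal 1022. ALDH1A2 was closest to KAZALD1 (0.918), ARMH4 (0.914) and CD248 (0.896), where CD248 is a surface protein of stromal cells. ALDH1A3 was closest to LDLRAD3 (0.961), GPR153 (0.954) and C3 (0.953). C1S and C3 are complement genes. RARRES2 was closest to HOMER3 (0.987), C1QTNF1 (0.981) and DCP1B (0.978). RARB was closest to SMCO1 (0.949), AASDHPPT (0.934) and IRS2 (0.927), whose own log2 fold changes were all below 0. The r of RARB with each of the other 6 genes tested was negative, from -0.331 with CRABP2 to -0.725 with RARRES2.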

How the data were processed

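The data were 12 RNA sequencing libraries, 2 from each of 6 pigs. The values the authors deposited are unnormalized counts per Ensembl gene, made from poly(A)-enriched, nondirectional paired-end reads with STAR on Sscrofa11.1 and featureCounts. The options for reads with several matches were not given in the sources used here, reads of overlapping genes on opposite strands cannot be told apart, and reads of transplanted human cells were not separated. Region and animal came from the sample titles. The extraction text of the labels speaks of border zone tissue for all libraries.

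Genes were kept by filterByExpr (13844), scaled by TMM and compared by the quasi-likelihood test of edgeR 4.0.16 (robust, region only, R 4.3.3) with Benjamini-Hochberg adjustment. Standard errors were derived from the fold change and F. DESeq2 1.42.0 was an alternative. Log2 CPM used a prior count of 2. Symbols were paired with 15623 identifiers, and GPR1 was matched as CMKLR2. An animal number pairs its border zone and remote zone library. Across genes, their deviations from the mean of the region had an average r of 0.345, over 0.1 in 4 of 6 animals. The genes described and all lists were chosen with earlier results of these data known. Named were the 9 genes, 11 fixed pathway genes, any other pathway gene past the threshold, and the 3 genes nearest to each of the 7 tested. Some of these results are not reported here. Alternatives were a block, DESeq2, other scalings, filters and prior count, and each animal left out. Starts, exons and sequences came from RefSeq on Sscrofa11.1. The steps were tested on simulated data.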

Additional observations from a re-analysis of the deposited data

Results flagged for a closer look

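For the 9 genes and the named pathway genes, the highest and lowest library of each region was compared with its nearest neighbour. Chance sets apart about 1 in 20 groups of 6, and 2 of the 39 groups examined had such a library. CYP26B1 had a log2 CPM of 1.94 in the remote zone library of animal 3622, where the next was 2.84. RARG had a log2 CPM of 5.19 in the border zone library of animal 1022, where the next was 3.99.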

How the results depend on the processing

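Leaving out a single border zone library was chosen after the data were seen. Of all genes, 287 were called by edgeR, 41 with the replicate block, 1724 by DESeq2, 1551 with library totals, 139 with no filter, 149 with at least 10 counts in every library, 0 to 519 with each animal left out, and 156 without the border zone library of animal 3622. The count of 0 arose without animal 1623 and without animal 3622, with 2662 and 2448 genes at an unadjusted p below 0.05. Of the 9 genes described, 3 were called, and 1 with the replicate block and with no filter (CRABP1), 1 of the 5 left with at least 10 counts in every library (ALDH1A2), 5 by DESeq2 and with library totals, and 0 to 3 with each animal left out. Where 0 were called, 5 or 6 of the 7 tested had an unadjusted p under 0.05. In those fits 2738 of 13784 genes passed that p without animal 1323, 2662 of 13745 without 1623 and 2448 of 13858 without 3622. Of the 34 wider genes 0 were called, 8 of 40 by DESeq2, 9 with library totals, and 0 to 1 with each animal left out (RAI14 without animal 1322), and 2, CMKLR1 and RAI14, without the border zone library of animal 1022. The median log2 fold change of the wider genes, 0.34, was 0.82 by DESeq2 and 0.88 with no filter, both over more genes. It was 0.62 with library totals, 0.19 with at least 10 counts in every library and 0.21 without the border zone library of animal 1022. With each animal left out it was 0.27 to 0.55. The median of all genes, 0.04, was 0.45 by DESeq2, 0.75 with no filter and 0.32 with library totals. The median of the 7 genes tested was between 0.84 and 1.45. Under library totals the fold changes of RARB and RXRA turned to 0.087 and 0.16, and that of DHRS3 was -0.13 to 0.21 with each animal left out and -0.04 without the border zone library of animal 1022. None of these was called. Of 236 values of single genes under the alternatives, 204 kept direction and side of the threshold, 16 lost a call, 12 gained one and 4 changed sign. Apart from fewer genes or samples, the cause was not tested. With a prior count of 0.5 the gene nearest to CRABP2 was COMP (r = 0.964). Depth limits RBP4, STRA6 and the remote zone levels of CRABP2, at 11 reads or fewer per remote zone library.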
